A study of Mus musculus with 43 samples.

Results

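Elastic fibres give lung tissue its recoil, and 10 genes that encode their core protein, their microfibrils and their assembly proteins were followed here through bleomycin injury and nintedanib treatment in mouse lung. The genes were Eln, Fbn1, Fbln1, Fbln2, Fbln5, Efemp1, Efemp2, Emilin1, Mfap4 and Mfap5. They were chosen by symbol, 1 row each, from the 21938 genes of the deposited count table, and all 10 were among the 14836 genes tested. The data were 43 RNA-seq libraries of polyA RNA from the inferior lung lobe. The control group held 10 mice given a vehicle that the labels do not name. A second group of 16 mice received bleomycin and the vehicle of nintedanib, and is called the vehicle group below. The third group of 17 mice received bleomycin and nintedanib. Bleomycin, a DNA-cleaving drug, injures the lung and leads to fibrosis in rodents. Nintedanib inhibits the VEGF, FGF and PDGF receptor kinases and is given to patients with idiopathic pulmonary fibrosis. The labels give no dose, route, day, age, sex or strain, and an effect of bleomycin cannot be told apart from any difference between the vehicles. Each library was taken as 1 mouse, which the labels do not state. P-values therefore measure the spread between these libraries. Replicate numbers below were given in the order of the labels and only name libraries.

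An elastic fibre has a core of cross-linked elastin, the product of Eln, laid down on a scaffold of microfibrils whose main protein is fibrillin-1, the product of Fbn1. Cells secrete soluble tropoelastin, fibulins bring it to the microfibrils, and lysyl oxidases cross-link it. In the lung most elastin is made while the alveoli form, and the protein turns over slowly afterwards. The microfibril-associated glycoproteins Mfap4 and Mfap5 and the glycoprotein emilin-1 sit on or between these parts.

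RefSeq promoter windows of GRCm38.p6 were given for 7 of the 10 genes. The bases just before the annotated start are shown for 4 fibulin genes, to set 2 that rose in bleomycin lungs (Fbln5 and Efemp2) beside 2 that did not pass the test (Fbln1 and Efemp1). Fbln1 and Fbln5 each had 2 windows and Efemp2 had 3; the one upstream of all annotated exons is shown. Each runs 5′ to 3′ on the gene's strand. Capitals mark matches, on either strand, to 6 motifs: AP-1, SMAD, TEAD, GC box, TATA box and CArG box.
Fbln5: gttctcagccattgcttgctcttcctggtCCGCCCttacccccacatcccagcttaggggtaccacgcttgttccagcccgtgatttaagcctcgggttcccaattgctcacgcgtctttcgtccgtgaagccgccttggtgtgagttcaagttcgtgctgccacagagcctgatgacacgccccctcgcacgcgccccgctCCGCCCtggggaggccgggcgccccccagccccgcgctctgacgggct
Efemp2: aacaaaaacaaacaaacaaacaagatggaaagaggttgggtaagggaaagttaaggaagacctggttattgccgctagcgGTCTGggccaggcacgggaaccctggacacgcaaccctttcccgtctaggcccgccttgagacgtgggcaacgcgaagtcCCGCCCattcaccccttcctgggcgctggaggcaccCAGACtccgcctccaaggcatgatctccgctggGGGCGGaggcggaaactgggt
Fbln1: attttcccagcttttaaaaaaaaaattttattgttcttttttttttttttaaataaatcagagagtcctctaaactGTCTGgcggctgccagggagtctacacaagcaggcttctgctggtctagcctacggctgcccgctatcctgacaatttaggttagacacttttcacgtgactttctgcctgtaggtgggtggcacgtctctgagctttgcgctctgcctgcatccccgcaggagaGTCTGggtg
Efemp1: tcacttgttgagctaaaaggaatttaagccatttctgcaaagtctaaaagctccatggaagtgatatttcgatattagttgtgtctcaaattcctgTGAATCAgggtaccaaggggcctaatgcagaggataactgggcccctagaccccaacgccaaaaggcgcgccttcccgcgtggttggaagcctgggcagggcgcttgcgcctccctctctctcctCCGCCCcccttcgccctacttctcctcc
The Fbln5 stretch is chr12:101819120-101819369 on the minus strand. The Efemp2 stretch is chr19:5473696-5473945, the Fbln1 stretch chr15:85205699-85205948 and the Efemp1 stretch chr11:28852955-28853203, all on the plus strand. Fbln5 held 2 GC boxes and Efemp2 held 2 GC boxes and 2 SMAD motifs. Fbln1 held 2 SMAD motifs, and Efemp1 held 1 AP-1 motif and 1 GC box. The windows not shown differed: the other Fbln5 window held 2 SMAD motifs and no GC box, the other Fbln1 window 2 SMAD motifs and 1 GC box, and the other Efemp2 windows 5 GC boxes each and no SMAD motif. The motifs of a gene thus depend on the window chosen. The AP-1 motif was searched as TGANTCA, and 6.75% of 32851 RefSeq windows of 250 bases held it. The SMAD motif was searched as CAGAC and was found in 42.19% of these windows. The TEAD motif, searched as GGAATG, was in 12.64% of windows, and the GC box, searched as GGGCGG, was in 32.74%. For the TATA box the letters were TATAAA and the share 12.37%, and the CArG box was in 1.47% of windows. GC content was 65.2% in the Fbln5 window, 59.2% in Efemp2, 53.6% in Efemp1 and 46.4% in Fbln1, against a median of 52.4% over all windows. In the windows not shown it was 49.6% for Fbln5, 62.4% for Fbln1, and 75.6% and 78.8% for Efemp2. GC content thus also depends on the window chosen. None of the 4 stretches shown held the TATA box, the TEAD motif or the CArG box. A match is a run of letters only, and no binding was measured.

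Library totals ran from 13138281 to 19111457 reads. Markers of fat, large airway and muscle tissue differed between groups. Adipoq, which encodes the fat cell hormone adiponectin, was at or above 1 CPM, a count scaled to its TMM-adjusted library total, in 8 of 10 control, 0 of 16 vehicle and 5 of 17 nintedanib libraries. The summed level of 7 fat cell markers was 8.68 to 1440 CPM in control libraries, 1.76 to 13.5 in vehicle libraries and 2.36 to 712 in nintedanib libraries. The summed level of 5 large airway markers was 11.1 to 1844, 9.88 to 51.4 and 7.66 to 2740 CPM in the same order. That of 8 smooth muscle markers, such as Acta2 and Myh11, was 389 to 612, 281 to 747 and 347 to 1220 CPM. Marker sums of 5 cardiac muscle genes were 252 to 1420, 12.9 to 477 and 20.4 to 1685 CPM, and those of 5 cartilage genes did not pass 7.43 CPM in any library. In the vehicle group against controls, 6 of 6 tested fat cell, 5 of 5 airway, 4 of 4 cardiac and 5 of 8 smooth muscle markers fell, and none rose. Of all tested genes 28.3% fell and 29.5% rose. No marker of these lists was at 0 in all libraries of a group, and the median of Adipoq in the vehicle group was 0. Counts of genes below are therefore also given without the 13 libraries that held Adipoq, which leaves 2 control libraries, and the part of these tissues in the results was not otherwise tested. Without those 13 libraries 1 of 2 tested fat cell, 0 of 5 airway, 2 of 4 cardiac and 0 of 8 smooth muscle markers fell in the vehicle group, and none rose. All genes called were then 3654, against 8585 with all libraries. The summed level of Sftpc, Sftpb, Ager and 5 other genes that mark lung tissue was 40848 to 52779 CPM in controls (median 46600 CPM), 21051 to 60105 in the vehicle group (median 38230.1) and 35457 to 57117 in the nintedanib group (median 42448). Of these 8 genes 4 fell and none rose in the vehicle group against controls. Without the libraries holding Adipoq 2 of the 8 fell. The part of this in the members' values was not tested.

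Per kilobase of annotated exon, the control lung held more Mfap4 and Efemp1 transcript than Eln transcript. Levels of different genes are compared here as RPKM, CPM divided by the annotated exon length in kilobases. That length joins all annotated exons of a gene, 8098 bases for Eln and 2037 for Efemp1. The order and the shares in this and the next paragraph depend on it. In CPM the control mean was 377 for Mfap4, 217 for Eln and 152 for Efemp1. Mfap4 stood first in 10 of 10 control libraries, with 196 ± 38.3 RPKM (SD, n = 10), which was 50.2 ± 4.63% (SD, n = 10) of the RPKM summed over the 10 genes. Efemp1 followed with 74.5 ± 5.84 RPKM, then Eln with 26.8 ± 5.73 and Fbln5 with 24.3 ± 1.26 RPKM. Fbln1 (15.3 ± 1.84), Emilin1 (15.7 ± 2.24), Efemp2 (12.1 ± 0.833), Mfap5 (10.1 ± 1.01) and Fbn1 (9.16 ± 1.37 RPKM) lay close together. Fbln2 was lowest in the order, at 4.10 ± 0.868 RPKM. The ranges of neighbours in this order overlapped between Eln and Fbln5, between Fbln1 and Emilin1, between Efemp2 and Mfap5, and between Mfap5 and Fbn1, and not between the other neighbours.

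In bleomycin lungs the make-up shifted towards Eln. The share of Eln in the summed RPKM was 6.92 ± 1.36% (SD, n = 10) in control libraries, 29.8 ± 12.9% (SD, n = 16) in vehicle libraries and 23.1 ± 9.92% (SD, n = 17) in nintedanib libraries. The share of Mfap4 was 34.2 ± 8.94% in the vehicle group and 40.5 ± 7.20% in the nintedanib group, and that of Efemp1 went from 19.3 ± 1.86% in controls to 11.1 ± 4.30% and 13.2 ± 3.59%. Eln was the highest of the 10 genes in 9 of 16 vehicle libraries and 3 of 17 nintedanib libraries, and Mfap4 was the highest in all the others. The sum over the 10 genes had a median of 391.9 RPKM in controls, 580.3 in the vehicle group and 613 in the nintedanib group. Behind Mfap4, Eln and Efemp1, the order by median in both bleomycin groups was Fbln5, Emilin1, Fbn1 and Mfap5, with Fbln2 last. Ranges overlapped between all neighbours in the vehicle group. In the nintedanib group they overlapped between all neighbours except Efemp1 and Fbln5, and Efemp2 and Fbln2.

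**Figure D1:**
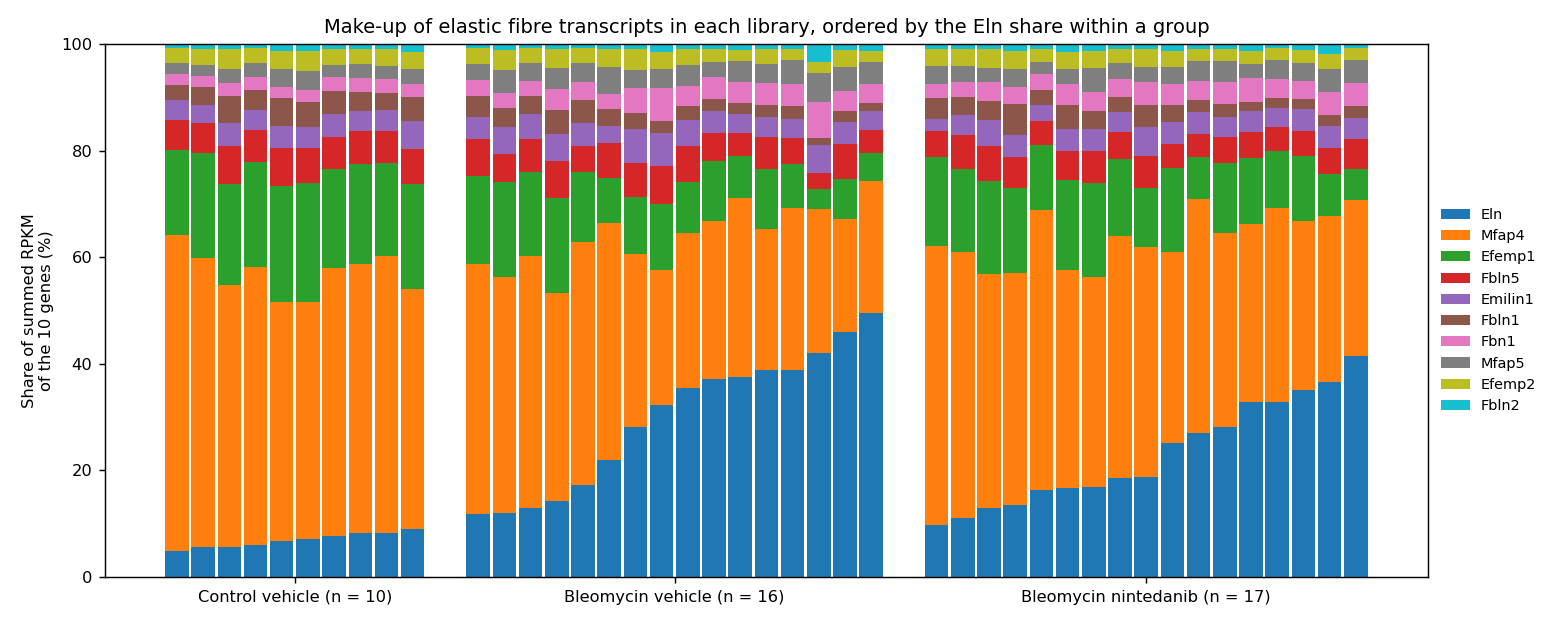
Stacked bars give, for each library, the percentage of the summed RPKM of the 10 elastic fibre genes that each gene takes; libraries are ordered by the Eln share within a group. Eln takes 4.88 to 8.95% in control libraries, 11.8 to 49.4% in vehicle libraries and 9.77 to 41.4% in nintedanib libraries.

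The comparison of the vehicle group with controls asks what bleomycin changed. Over all 14836 tested genes, 57.9% were called. Of the 10 genes, 7 rose, none fell and 3 did not pass the test (edgeR quasi-likelihood F test, Benjamini-Hochberg adjusted p under 0.05). Among all tested genes, 29.5% rose and 28.3% fell. The median log2 fold change was 0.63 over the 10 genes and -0.01 over all tested genes. Eln, Fbn1 and Mfap5 rose at least 2-fold, which 6.06% of tested genes did. In Eln and Mfap5 the groups did not overlap, as in 3.70% of tested genes with the vehicle group higher, and no gene of the 10 was lower without overlap, as 1.84% of tested genes were. At an unadjusted p under 0.05 the count was 8 of 10, against 62.2% of tested genes. When the libraries holding Adipoq were left out, 4 genes rose (Eln, Fbn1, Efemp2 and Mfap5). Fbln2 (0.74, adjusted p = 0.36), Fbln5 (0.40, adjusted p = 0.18) and Emilin1 (0.53, adjusted p = 0.16) then kept a positive log2 fold change in edgeR and missed the threshold. With 2 surrogate variables in the fit, 6380 of all tested genes were called, against 8585 in the main fit. Of the 10 genes 5 then rose, with smaller log2 fold changes: 1.41 for Eln, 0.69 for Mfap5, 0.63 for Fbn1, 0.28 for Emilin1 and 0.25 for Efemp2. Only Eln then passed 2-fold, and Fbln5 (0.15, adjusted p = 0.12) and Fbln2 (-0.0044, adjusted p = 0.99) were not called. In bulk tissue, a change in the number of cells that express a gene and a change in the RNA per cell cannot be told apart.

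**Figure D2:**
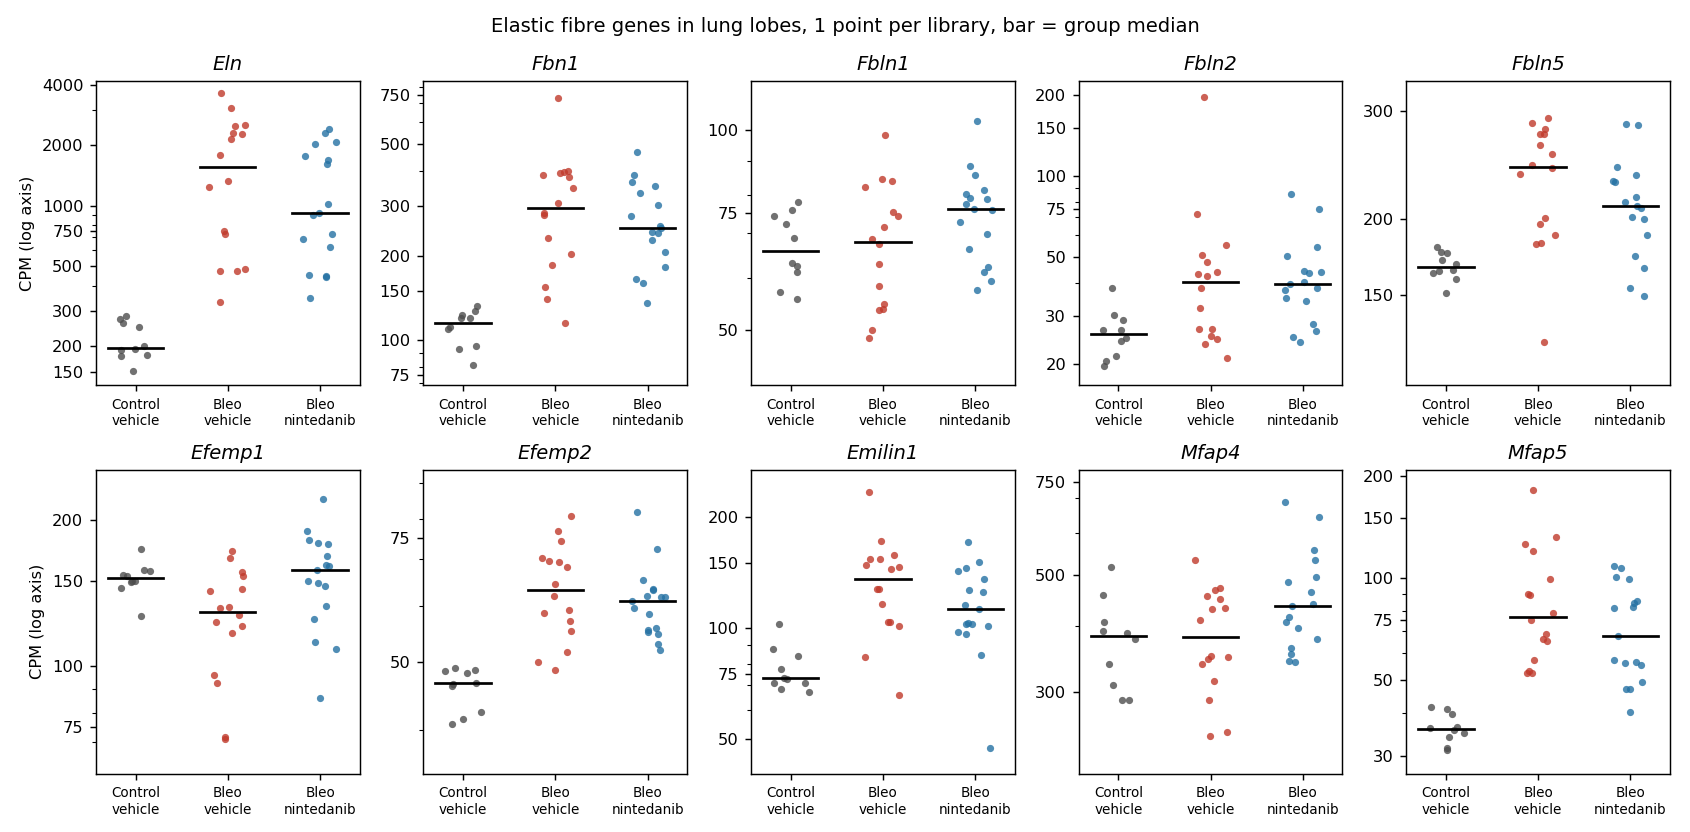
Each panel shows 1 elastic fibre gene in CPM on a log axis, with 1 point per library in the control vehicle (n = 10), bleomycin vehicle (n = 16) and bleomycin nintedanib (n = 17) groups and a bar at the group median. The Eln points of both bleomycin groups, from 332 CPM upwards, all lie above the highest control library at 284 CPM.

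Eln (ENSMUSG00000029675, chr5:134702593-134747323, minus strand, GRCm38) encodes the elastin core. Its level was 151 CPM in the lowest control library, 197 at the median and 284 in the highest. In the vehicle group it was 332, 1561 and 3622 CPM, so that every vehicle library was above every control library. The rise was 7.5-fold (95% interval 4.37 to 12.9), a log2 fold change of 2.91 ± 0.39 (SE) with an adjusted p of 3.5e-08. With 2 surrogate variables the log2 fold change was 1.41 (adjusted p = 8.7e-07 in edgeR), below the 95% interval of 2.13 to 3.69 on the log2 scale. The vehicle libraries were spread widely: 6 lay at or below 752 CPM and 10 at or above 1237 CPM. The coefficient of variation was 21.4% in controls and 63.9% in the vehicle group. An antisense gene, Gm30003, overlaps Eln, and the sources used here do not state whether reads were counted by strand.

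The microfibril genes did not move alike. Fbn1 (ENSMUSG00000027204, chr2:125300594-125507993, minus strand) encodes fibrillin-1. Its control libraries held 81.2, 115 and 133 CPM (lowest, median, highest) and its vehicle libraries 115, 296 and 730 CPM. All vehicle libraries but 1 were above the highest control library. Fbn1 rose by a log2 fold change of 1.47 ± 0.22 (SE, adjusted p = 3e-07), or 2.78-fold, and the small gene Gm9913 overlaps it on the other strand. Mfap5 (ENSMUSG00000030116, chr6:122505845-122529290, plus strand) encodes the glycoprotein MAGP-2, which binds fibrillin. It went from 31.2, 35.95 and 41.7 CPM in controls to 52.4, 77.0 and 181 CPM in the vehicle group, with no overlap. Its rise was 2.42-fold, a log2 fold change of 1.28 ± 0.19 (SE, adjusted p = 2e-07). Mfap4 (ENSMUSG00000042436, chr11:61485431-61488900, plus strand) encodes a fibrinogen-domain glycoprotein that binds tropoelastin and fibrillin. It held 289.7, 383 and 518 CPM in controls and 247, 381 and 534 CPM in the vehicle group. The ranges covered each other, and the log2 fold change was 0.03 with a 95% interval of -0.22 to 0.27 (adjusted p = 0.86). Reads of the overlapping gene Mapk7 could enter its count if strand was not used.

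The fibulins split in the same comparison. Fbln5 (ENSMUSG00000021186, chr12:101746565-101819055, minus strand) encodes fibulin-5, which links tropoelastin to microfibrils and to cell surface integrins. It was among the least variable of these genes in controls, at 151, 167 and 179.8 CPM, and held 126, 243 and 292 CPM in the vehicle group. In 15 of 16 vehicle libraries it was above the highest control library, and in replicate 10 it was below the lowest. It rose by 0.48 ± 0.10 on the log2 scale (SE, adjusted p = 0.00015). Efemp2 (ENSMUSG00000024909, chr19:5473954-5482517, plus strand) encodes fibulin-4, which brings lysyl oxidase to tropoelastin. It rose from 40.7, 46.6 and 49.1 CPM to 48.7, 63.3 and 80.6 CPM, a log2 fold change of 0.47 ± 0.07 (SE, adjusted p = 5.1e-07). Only 1 vehicle library lay within the control range. Mus81 overlaps Efemp2 on the other strand. Fbln2 (ENSMUSG00000064080, chr6:91212455-91272540, plus strand) encodes fibulin-2, a matrix protein of vessel walls and basement membranes. It held 19.6, 25.8 and 38.2 CPM in controls and 21.002, 40.3 and 195 CPM in the vehicle group, and 8 of 16 vehicle libraries were within the control range. It rose by 0.88 ± 0.27 on the log2 scale (SE, adjusted p = 0.0046). Replicate 4 of the vehicle group gave the 195 CPM, and without that library the value was 0.52 (adjusted p = 0.020).

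The other fibulins in the group did not rise. Fbln1 (ENSMUSG00000006369, chr15:85205949-85286535, plus strand) encodes fibulin-1, which lies within the elastic core and in basement membranes. It held 55.7, 65.9 and 77.9 CPM in controls and 48.7, 68.0 and 98.4 CPM in the vehicle group. In the vehicle group 4 libraries were above the control range and 5 below it, and the log2 fold change was 0.02 (95% interval -0.17 to 0.22, adjusted p = 0.84). Efemp1 (ENSMUSG00000020467, chr11:28853204-28926743, plus strand) encodes fibulin-3, which is found in fascia, vessel and basement membrane matrix. It held 127, 152 and 175 CPM in controls and 70.7, 129.7 and 173 CPM in the vehicle group, where 7 of 16 libraries were below the lowest control and none above the highest. The log2 fold change was -0.26 ± 0.12 (SE, adjusted p = 0.062). That value sat near the threshold: DESeq2 gave -0.27 with an adjusted p of 0.049, and edgeR with scaling by library totals gave -0.32 with 0.017. Emilin1 (ENSMUSG00000029163, chr5:30913402-30921277, plus strand) encodes emilin-1, found where elastin meets the microfibrils. It rose from 66.9, 73.0 and 103 CPM to 65.6, 136 and 234 CPM, with 13 of 16 vehicle libraries above the control range. The log2 fold change was 0.79 ± 0.15 (SE, adjusted p = 2.2e-05).

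Single vehicle libraries stood at the edge for several genes at once. Replicate 4 was highest of its group for Fbn1, Fbln2, Emilin1 and Mfap5 and lowest for Fbln1 and Efemp1. Replicate 10 was lowest for Eln, Fbn1, Fbln5, Efemp2 and Mfap5. In replicate 10 only Eln and Mfap5 were above the control range, while Fbln1, Fbln5, Efemp1 and Mfap4 were below it. The other 15 vehicle libraries each had 5 to 8 of the 10 genes above the control range. Summed levels of 8 activated fibroblast markers, among them Col1a1, Postn and Cthrc1, were 755 to 953 CPM in controls, 984 to 7722 in the vehicle group and 1154 to 3133 in the nintedanib group. In the vehicle group 6 of these 8 markers rose, while 8 of 10 alveolar fibroblast markers fell. Among 9 adventitial fibroblast markers 2 rose and 2 fell, and among 6 mesothelial markers 2 rose. Of all tested genes 29.5% rose and 28.3% fell. Without the libraries holding Adipoq, 4 activated fibroblast markers rose and 5 alveolar fibroblast markers fell. Of the adventitial markers 1 then rose and 1 fell, and of the mesothelial markers 1 rose. All genes called were 3654 in that setting, against 8585 with all libraries. The part of these cell types in the members' values was not tested.

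Nintedanib against the vehicle, both in bleomycin lungs, gave no called change in the 10 genes. None of the 10 passed an adjusted p under 0.05 in edgeR or in DESeq2, against 7.31% of tested genes in edgeR (3.21% higher and 4.10% lower). At an unadjusted p under 0.05 there were 2 (Efemp1 and Mfap4), against 24.3% of tested genes. The groups overlapped in every gene, as they did in all tested genes (0.00% without overlap in either direction). No gene of the 10 was called at least 2-fold higher, against 0.357% of tested genes. The median log2 fold change was -0.16 over the 10 genes and -0.00 over all tested genes. A missed threshold does not show that the levels were alike, so the intervals are given below.

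Estimates below 0 were given by 7 genes, none of them called. This comparison shares the vehicle libraries with the one above, so the 2 sets of values are not independent. Eln held 347, 925.2 and 2419 CPM (lowest, median, highest of 17) and its log2 fold change against the vehicle group was -0.44 with a 95% interval of -1.03 to 0.16 (adjusted p = 0.36). The libraries covered most of the vehicle range, and 7 of 17 were above the vehicle median. With 2 surrogate variables the estimate turned to 0.17 for Eln, 0.18 for Fbn1, 0.33 for Fbln2 and 0.03 for Efemp2, none of them called. Mfap5 held 40.2, 67.6 and 109 CPM, with a log2 fold change of -0.29 (interval -0.59 to 0.02, adjusted p = 0.24). Fbn1 held 135, 251 and 470 CPM, a log2 fold change of -0.20 (interval -0.56 to 0.16). Emilin1 held 47.2, 113 and 172 CPM, a log2 fold change of -0.21 (interval -0.47 to 0.04). For Fbn1, 6 of 17 nintedanib libraries were above the vehicle median, and for Emilin1 4 of 17 were. Fbln5 held 149.5, 209.9 and 286 CPM, with only 2 of 17 libraries above the vehicle median and a log2 fold change of -0.14 (interval -0.32 to 0.04, adjusted p = 0.32). Efemp2 held 52.0, 61.0 and 81.7 CPM (log2 fold change -0.06, interval -0.18 to 0.06). Fbln2 held 24.1, 39.5 and 85.6 CPM, with a log2 fold change of -0.17 (interval -0.62 to 0.27) that was 0.15 without vehicle replicate 4.

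Estimates above 0 were given by 3 genes. Efemp1 held 85.9, 158 and 221 CPM, and 13 of 17 nintedanib libraries were above the vehicle median. Its log2 fold change was 0.28 (interval 0.07 to 0.50, unadjusted p = 0.012, adjusted p = 0.093 in edgeR). Mfap4 held 342, 436 and 688 CPM, with 12 of 17 libraries above the vehicle median and a log2 fold change of 0.25 (interval 0.04 to 0.46, unadjusted p = 0.023, adjusted p = 0.14 in edgeR). Fbln1 held 57.6, 76.2 and 103 CPM (log2 fold change 0.14, interval -0.03 to 0.31). Of the smooth muscle markers 3 of 8 rose in this comparison, of the fat cell markers 5 of 6 and of the airway markers 5 of 5. None of these fell. Of 10 alveolar fibroblast markers 2 rose and 1 fell, and of 9 adventitial ones 2 rose and 1 fell. No activated fibroblast, mesothelial, cardiac or lung tissue marker was called. Of all tested genes 3.21% rose and 4.10% fell. Without the libraries holding Adipoq 1 of 8 smooth muscle, 0 of the 2 fat cell markers then tested and 0 of 5 airway markers rose. Of the adventitial markers 1 then rose, and no alveolar fibroblast marker was called. All genes called were then 525, against 1084 with all libraries. In the libraries without Adipoq, the log2 fold change was 0.29 for Efemp1 (adjusted p = 0.19) and 0.28 for Mfap4 (adjusted p = 0.18) in edgeR. The part of these tissues and cell types in the members' values was not tested.

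The library names fall into 3 number series whose meaning the labels do not give, here called A, B and C. Series A held 9 control, 11 vehicle and 13 nintedanib libraries, series B held 2 vehicle and 2 nintedanib libraries, and series C held 1, 3 and 2. The difference in mean log2 CPM of Eln between nintedanib and vehicle libraries was -0.14 in series A, 0.06 in series B and -1.63 in series C. For Fbn1 it was -0.06, 0.07 and -0.58, and for Mfap5 -0.21, -0.10 and -0.63. The sizes thus differed between series, with the lowest values in series C, and this difference was not tested. Efemp1 was 0.40 higher with nintedanib in series A, 0.23 lower in series B and 0.30 higher in series C. In edgeR within series A alone the Efemp1 log2 fold change was 0.39 with an adjusted p of 0.046, and no other gene of the 10 was called. The vehicle group exceeded controls by 2.53 in series A and by 3.77 in series C for Eln, with a single control in series C.

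**Figure D3:**
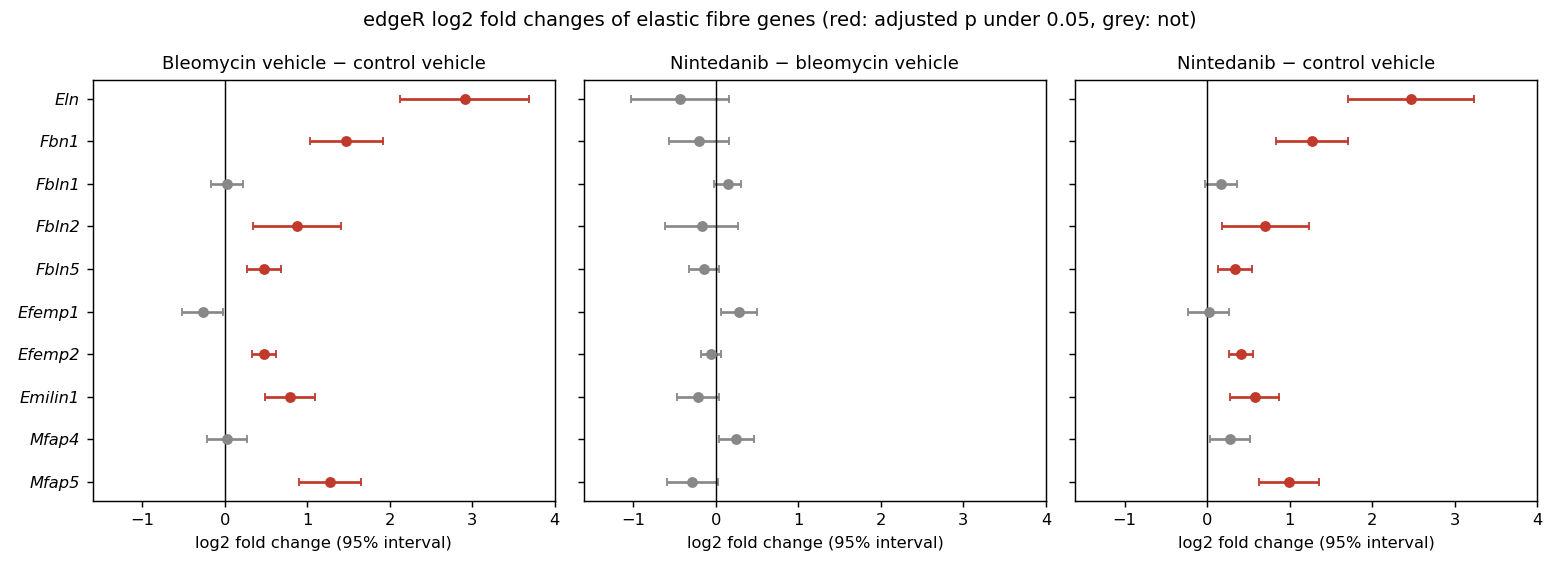
Points give the edgeR log2 fold change of each elastic fibre gene in 3 comparisons, bars its 95% interval, and red an adjusted p under 0.05. In the left and right panels 7 genes are red and positive, from Fbln5 and Efemp2 below 0.5 to Eln at 2.91 and 2.47; in the middle panel no gene is red.

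The nintedanib group differed from controls in 7 genes as well. The comparison shares its control libraries with the first one and its nintedanib libraries with the second, so it is not independent of them. Against controls 7 of the 10 genes rose and none fell, where 53.2% of all tested genes were called (28.1% rose and 25.1% fell). Eln and Fbn1 rose at least 2-fold, as 4.70% of tested genes did. At an unadjusted p under 0.05 there were 8 of 10 genes, against 58.1% of tested genes. The median log2 fold change was 0.49 over the 10 genes and -0.01 over all tested genes. Eln rose by 2.47 ± 0.38 (SE, log2, adjusted p = 6e-07), Fbn1 by 1.27 ± 0.22 (adjusted p = 3.9e-06) and Mfap5 by 0.99 ± 0.18 (adjusted p = 1.5e-05). Fbln2 rose by 0.70, Emilin1 by 0.58, Efemp2 by 0.41 and Fbln5 by 0.33, with adjusted p from 5.3e-06 to 0.022. Groups did not overlap in Eln, Fbn1 and Efemp2, as in 4.31% of tested genes with the nintedanib group higher; none of the 10 was lower without overlap, as 3.07% of tested genes were. Mfap4 (0.27, adjusted p = 0.053), Fbln1 (0.17, adjusted p = 0.14) and Efemp1 (0.02, adjusted p = 0.91) were not called. With the number series as a covariate 8 genes rose, Mfap4 (0.29, adjusted p = 0.049) among them, and Mfap4 was also called in 8 of 43 fits that each left out 1 library. With 2 surrogate variables, 7251 of all tested genes were called, against 7888 in the main fit. Of the 10 genes 6 then rose. Fbln1 gained a call (0.26, adjusted p = 0.021), and Fbln2 (0.33, adjusted p = 0.086) and Fbln5 (0.13, adjusted p = 0.15) lost theirs. The value in that fit was 1.59 for Eln, 0.80 for Fbn1, 0.69 for Mfap5, 0.28 for Efemp2 and 0.26 for Emilin1. After leaving out the libraries holding Adipoq, only Eln (2.40, adjusted p = 0.040) and Fbn1 (1.29, adjusted p = 0.048) were called against the 2 control libraries left. The log2 fold changes that missed the threshold were 0.95 for Mfap5, 0.50 for Fbln2, 0.36 for Efemp2, 0.36 for Emilin1 and 0.29 for Fbln5. Fbln2 also lost its call when control replicate 5 was left out, with an adjusted p of 0.050. Nintedanib replicate 14 was lowest of its group for Eln, Fbn1, Fbln2, Fbln5 and Emilin1, and replicate 10 was highest for Fbn1, Fbln5, Efemp1, Efemp2 and Emilin1.

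Within the bleomycin groups most pairs of the genes that rose went up and down together from library to library. Over 45 pairs of the 10 genes, Pearson r of log2 CPM was positive with a permutation test p, adjusted over the 45 pairs, under 0.05 in 16 pairs of the vehicle group (n = 16). It was so in 19 pairs of the nintedanib group (n = 17) and in none of the control group (n = 10), where 32 of 45 pairs were positive. The smallest unadjusted p that 100000 resamples can give is 1e-05. Eln and Fbn1 had r = 0.89 (Spearman's rho = 0.93, adjusted p = 0.00018 and 0.00022 by permutation) in the vehicle group and r = 0.95 (rho = 0.94, adjusted p = 0.00015 and 0.00022 by permutation) in the nintedanib group. Without the 2 libraries farthest from the Eln median, r was 0.83 and 0.93. Eln and Mfap5 had r = 0.89 (rho = 0.96, adjusted p = 0.00011 and 0.00015 by permutation) and r = 0.84 (rho = 0.81, adjusted p = 0.0006 and 0.0012 by permutation). Without the 2 farthest libraries their r was 0.86 and 0.84. Fbn1 and Emilin1 had r = 0.93 (rho = 0.87) and 0.88 (rho = 0.93), and 0.88 in both groups without the 2 farthest libraries.

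The called pairs joined Eln, Fbn1, Fbln2, Fbln5, Efemp2, Emilin1 and Mfap5 with each other, apart from 1 in each group. Some pairs of these genes missed the threshold. In the vehicle group they were Fbln5 with Fbn1 (r = 0.57), Emilin1 (0.50), Mfap5 (0.38) and Fbln2 (0.29), and Efemp2 with Fbln2 (0.53) and Mfap5 (0.54). In the nintedanib group they were Fbln2 with Fbln5 (0.53) and Efemp2 with Mfap5 (0.51). In the vehicle group Fbln1 and Efemp1 had r = 0.69 (rho = 0.67, adjusted p = 0.0079 and 0.019 by permutation; 0.64 without the 2 farthest libraries). In the nintedanib group Eln and Fbln1 had r = -0.60 (rho = -0.54, adjusted p = 0.028 and 0.064 by permutation; -0.63 without the 2 farthest libraries). Mfap4 was in no pair called by Pearson r. By rho alone, Fbln5 and Mfap4 passed in the nintedanib group (rho = 0.58, r = 0.48, adjusted p = 0.042 and 0.092 by permutation). The r of Mfap4 with Eln was 0.24 in the vehicle group and 0.35 in the nintedanib group. Within series A, all 16 called pairs of the vehicle group kept their sign with r of 0.62 or more, and all 20 of the nintedanib group kept theirs with an absolute r of 0.48 or more. Between Fbln2 and Efemp2 in the nintedanib group r went from 0.71 to 0.35 without the 2 farthest libraries, so that relation rests on them. By Spearman's rho 15 and 17 of these pairs also passed the adjusted threshold. The libraries share depth and tissue make-up across genes, so these values describe libraries. Differences in r between groups were not tested.

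**Figure D4:**
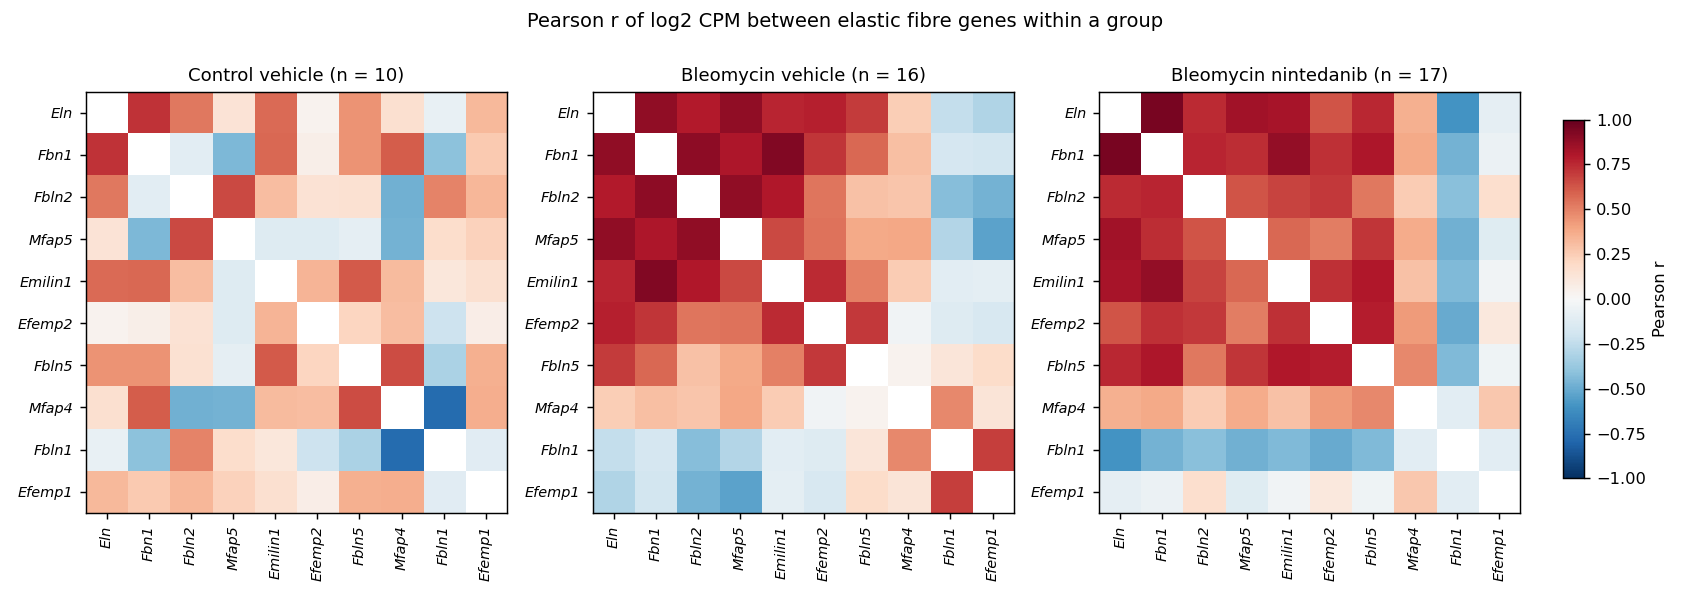
Each square gives Pearson r of log2 CPM between 2 elastic fibre genes across the libraries of 1 group, from blue (-1) to red (1). The block of Eln, Fbn1, Fbln2, Mfap5, Emilin1, Efemp2 and Fbln5 is red in both bleomycin groups, with Eln and Fbn1 at 0.89 and 0.95, and mixed in controls, where no pair passed the threshold; Mfap4, Fbln1 and Efemp1 lie outside it.

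Genes that build on the same fibres were read from 7 related lists, each gene with the same test. In the vehicle group against controls 29.5% of all tested genes rose and 28.3% fell, 57.9% in all, so that list counts near those shares say nothing particular about a list. Of the 6 other microfibril genes 3 rose and 2 fell, with a median log2 fold change of 0.37 (-0.01 over all tested genes). Ltbp2, which binds fibrillin and fibulin-5, rose from a median of 93.5 to 332 CPM (log2 fold change 1.87 ± 0.26, SE) and Ltbp3, a latent TGF-beta binding protein, from 270 to 452 CPM (0.70 ± 0.09). Fbn2, which encodes fibrillin-2, went from 0.89 to 1.89 CPM (log2 fold change 1.71 ± 0.51). Ltbp4, which binds fibulin-4 and fibulin-5 and is needed for elastic fibres in lung, fell from 1004 to 543 CPM (log2 fold change -0.84 ± 0.11), with no overlap between the groups. Mfap2, which encodes MAGP-1, also fell (-0.31 ± 0.09). In the first 4 of these genes by p (Ltbp3, Ltbp4, Ltbp2 and Fbn2) the adjusted p was 6.8e-09, 1e-08, 1.1e-07 and 0.0041 in edgeR. Without the libraries holding Adipoq 2 of the 6 rose and 1 fell. That setting leaves 2 control libraries, and 3654 of all tested genes were called in it, against 8585 with all libraries.

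Among 7 other fibulins and emilins 3 rose and 2 fell. Mmrn1, which encodes multimerin-1, rose from a median of 23.02 to 47.7 CPM (log2 fold change 1.09 ± 0.13, SE). Fbln7 (0.23 to 1.78 CPM) and Emilin3 (0.055 to 0.48 CPM) rose at very low levels. Mmrn2, an endothelial matrix protein, fell from 78.0 to 62.0 CPM (log2 fold change -0.41 ± 0.07) and Hmcn1, a very large fibulin, by 0.39 ± 0.09 on the log2 scale. Of 7 cross-linking and assembly genes 6 rose and none fell, with a median of 0.79. The lysyl oxidase genes all moved up: Loxl2 by 1.54 ± 0.23, Lox by 1.26 ± 0.26, Loxl4 by 0.86 ± 0.16, Loxl3 by 0.79 ± 0.17 and Loxl1, the family member most tied to elastin, by 0.78 ± 0.15 (log2, SE, adjusted p from 3.9e-07 to 0.00014 in edgeR). Fkbp10, a collagen and elastin chaperone, rose as well, and the copper transporter Atp7a did not pass the test. With these Adipoq libraries left out 1 of the 7 rose, and 3 fibulins and emilins rose and 1 fell. All genes called were then 3654, against 8585, with 2 control libraries left.

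Genes that break down or bind elastin were read beside the same shares of 29.5% and 28.3%. Of 8 tested elastin-degrading proteases 6 rose and 1 fell, with a median log2 fold change of 1.61. The macrophage elastase Mmp12 rose from a median of 5.40 to 85.8 CPM (log2 fold change 4.13 ± 0.26, SE), and the cathepsins Ctss (146 to 963 CPM) and Ctsk (29.2 to 239 CPM) rose by 2.66 ± 0.16 and 3.03 ± 0.24. Mmp2, a gelatinase, rose by 2.36 ± 0.20, and no group overlapped in these 4 genes. Mmp9 fell from a median of 17.3 to 7.22 CPM (log2 fold change -1.22 ± 0.30). Of 6 tested inhibitors 3 rose and none fell, led by Timp1 (3.61 to 39.5 CPM) and Slpi (14.6 to 38.4 CPM). Among 9 elastin receptor and binding genes 7 rose and 1 fell: Lgals3, which encodes galectin-3, rose by 1.497 ± 0.128 and Ctsa, part of the elastin receptor complex, by 1.01 ± 0.09, while the integrin gene Itga8 fell by 0.86 ± 0.14 (log2). Of 7 microfibril regulators of the ADAMTS kind Adamtsl2 rose (1.02 ± 0.17) and Adamtsl4 and Adamts10 fell. The counts without Adipoq libraries were 5 and 0 for proteases, 3 and 0 for the 7 inhibitors then tested, 6 and 1 for receptor and binding genes, and 0 and 1 for the ADAMTS kind (rose and fell). All genes called in that setting were 3654, against 8585 with all libraries.

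With nintedanib against the vehicle, 6 of the related genes were called (Mmrn1, Adamtsl4, Thsd4, Adamts10, Mmp9 and Itga5), where 7.31% of all tested genes were. By list, 1 of 7 other fibulins and emilins fell, 1 of 8 tested proteases rose and 1 of 9 receptor and binding genes fell. Of 7 genes of the ADAMTS kind 2 rose and 1 fell. The counts were 0 of 6 microfibril genes, 0 of 7 cross-linking genes and 0 of 6 inhibitors in either direction, in both edgeR and DESeq2. At an unadjusted p under 0.05 in edgeR they were 2, 2 and 1: Fbn2 (log2 fold change -1.06, adjusted p = 0.098), Ltbp2 (-0.53, adjusted p = 0.11), Fkbp10 (-0.27, adjusted p = 0.17), Loxl3 (-0.31, adjusted p = 0.18) and Timp3 (0.21, adjusted p = 0.14). Mmrn1 fell from a median of 47.7 to 34.9 CPM (log2 fold change -0.48 ± 0.11, SE, adjusted p = 0.0070 in edgeR). Among the ADAMTS kind Adamtsl4 (0.28 ± 0.07, adjusted p = 0.014) and Thsd4 (0.28 ± 0.08, adjusted p = 0.027) rose and Adamts10 fell (-0.21 ± 0.05, adjusted p = 0.017). Mmp9 rose from 7.22 to 10.3 CPM (0.99 ± 0.27, adjusted p = 0.020), and Itga5 fell (-0.28 ± 0.09, adjusted p = 0.049). In the libraries without Adipoq 1 fibulin or emilin gene fell, and 1 protease and 1 gene of the ADAMTS kind rose. All genes called were then 525, against 1084 with all libraries. Against controls the nintedanib group had 6 of 7 cross-linking genes, 5 of 8 proteases, 7 of 9 receptor and binding genes and 4 of 6 inhibitors higher. In these lists 1 receptor and binding gene was lower. Of other microfibril genes 2 of 6 were higher and 2 lower, of other fibulins and emilins 3 of 7 and 2. Of the ADAMTS kind 2 of 7 were higher and 2 lower. Of all tested genes 28.1% were higher and 25.1% lower. Without the libraries holding Adipoq the counts higher were 0, 5, 5 and 3 in the first 4 lists, with 0 lower. In the last 3 lists 1 gene each was higher, and 2, 1 and 1 were lower. In that setting 3297 genes were called in all, against 7888 with all libraries.

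**Figure D5:**
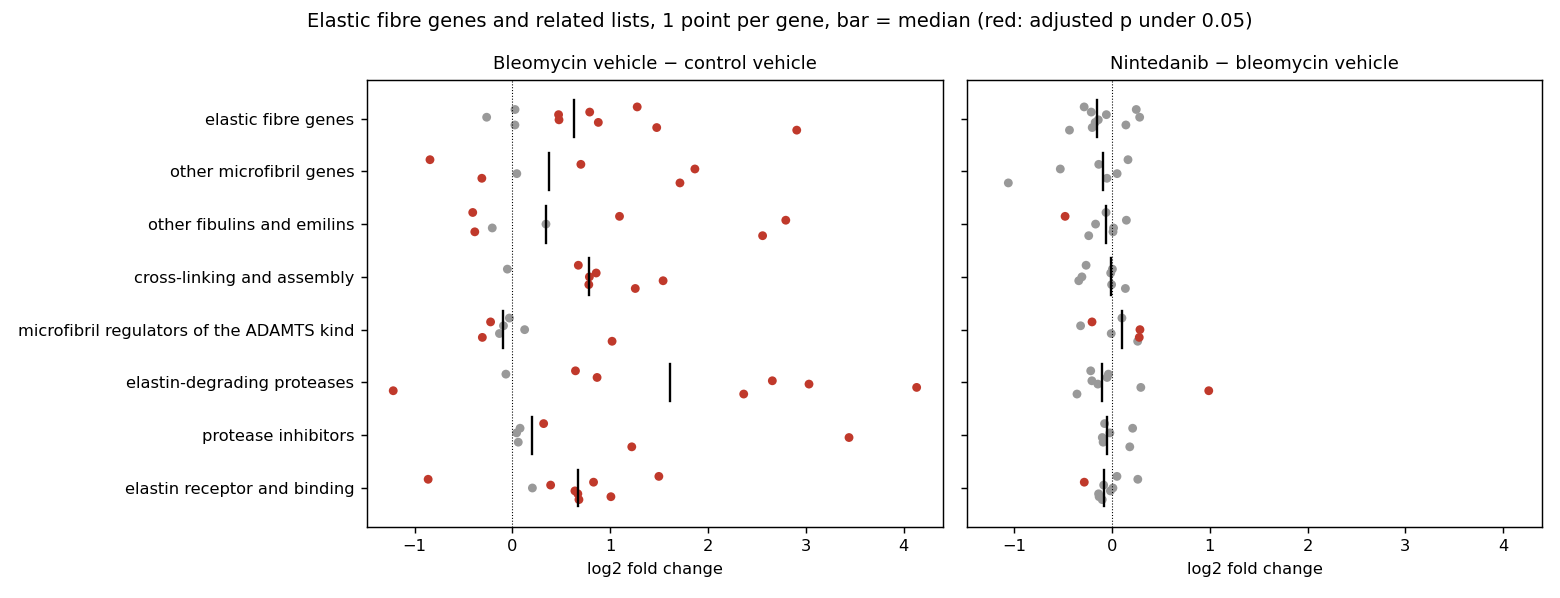
Points give the edgeR log2 fold change of each gene of the elastic fibre group and of 7 related lists, bars the list median and red an adjusted p under 0.05, for bleomycin vehicle against control (left) and nintedanib against vehicle (right). On the left the medians of elastic fibre, cross-linking and protease genes are 0.63, 0.79 and 1.61; on the right all list medians lie between -0.16 and 0.10.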

How the data were processed

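Libraries were directional and read from a single end, per the labels' protocols. Reads were aligned with STAR 2.7.0f to GRCm38 and handled in R 3.6.0, per the submitters' processing notes. The deposited file holds whole-number counts per Ensembl gene; the counting tool, strand setting, annotation and filters are not stated in those sources. The table had 0 columns of other samples. Symbols, exon lengths and coordinates came from GENCODE M21 (GRCm38), and promoter sequences from RefSeq.

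Genes were kept by edgeR's filterByExpr (a count of 10 and a total of 15 as minimum). The 14836 genes kept hold 99.96% of counts. TMM factors ran from 0.93 to 1.09. One quasi-likelihood fit (edgeR 4.0.16, limma 3.58.1, R 4.3.3) on all 43 libraries had 1 coefficient per group, with 3 two-sided contrasts and Benjamini-Hochberg adjustment over all tested genes at 0.05. SEs were derived from the F statistic, and log2 CPM used a prior count of 2. CPM, RPKM and log2 values were computed here from the deposited counts. Correlations used SciPy 1.17.1 and NumPy 2.4.6.

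All 10 members are named in each comparison. Of the related lists up to 4 genes with the smallest p past the threshold are named by rule; others were named after their values were seen. For likeness the 3 nearest genes are named. Members and lists were chosen with earlier results of these data known.

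Alternatives were RLE factors, library totals, DESeq2 1.42.0, no low-count filter, the 2 groups compared only, number series as a covariate, series A only, libraries without Adipoq, 2 surrogate variables from sva 3.50.0, and each library left out in turn. Scripts were tested on simulated data. Correlations within series A were added after the data were seen.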

Additional observations from a re-analysis of the deposited data

How the results depend on the processing

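No paired analysis was possible because the labels give no replicate numbers. Against controls, the count of elastic fibre genes higher went from 7 to 4 in the vehicle group and from 7 to 2 in the nintedanib group without the libraries holding Adipoq, when all genes called were 3654 and 3297 (8585 and 7888 with all libraries). With 2 control libraries left, fewer samples enter these fits. In nintedanib against vehicle all genes called fell from 1084 to 525 without these libraries, to 640 with only the 2 groups, and ranged from 696 to 1559 when each library was left out. The count of the 10 genes lower in the vehicle group than in controls was 1 (Efemp1) with library totals, DESeq2, number series as covariate and series A only. It was 0 to 1 when each library was left out, and Efemp1 was called lower in 16 of those 43 fits. The count higher with nintedanib than vehicle was 1 (Efemp1) in series A, and 0 to 1 when each library was left out.

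With 2 surrogate variables nintedanib against vehicle gave 0.17 for Eln, 0.18 for Fbn1, 0.33 for Fbln2 and 0.0284 for Efemp2, and vehicle against control -0.0044 for Fbln2 and -0.13 for Mfap4; the cause was not tested. Vehicle against control gave -0.0251 for Fbln1 and -0.0171 for Mfap4 with library totals, and -0.15 for Mfap4 without Adipoq. Nintedanib against control gave -0.0534 for Efemp1 with library totals, -0.0173 with only the 2 groups and -0.0010 with surrogate variables. Leaving out each library gave -0.0348 to 0.0501 for Fbln1 and -0.0429 to 0.0601 for Mfap4 (vehicle against control), -0.27 to 0.15 for Fbln2 (nintedanib against vehicle) and -0.0439 to 0.0441 for Efemp1 (nintedanib against control). Fbln2, at 19.6 CPM in its lowest library, was the gene with the fewest reads.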

Other observations

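The genes whose levels ran closest to each elastic fibre gene were found across all 43 libraries after each group's mean of log2 CPM was taken off, among all tested genes outside the 10. The values describe libraries that share depth and tissue make-up. Eln ran closest to Col5a2 (r = 0.92), a fibrillar collagen gene, to Adamts2 (r = 0.91), which encodes a procollagen protease, and to Ltbp2 (r = 0.91). Fbn1 ran closest to Col5a2 (r = 0.96), Fn1 (r = 0.94), which encodes fibronectin, and Col3a1 (r = 0.94). Fbln2 had the collagen I genes Col1a2 (r = 0.89) and Col1a1 (r = 0.88) and Fstl1 (r = 0.88) nearest, and Mfap5 had Fstl1 (r = 0.92), Ltbp2 (r = 0.91) and Pdgfrl (r = 0.89). Emilin1 was nearest to Sardh (r = 0.89) and to the collagen genes Col18a1 (r = 0.88) and Col16a1 (r = 0.87).

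Fbln5 ran with the basement membrane genes Col4a1 (r = 0.87), Col4a2 (r = 0.85) and Lamb3 (r = 0.84). Efemp2 ran with the cytoskeletal genes Tubb5 (r = 0.82) and Actn1 (r = 0.81) and with Col4a1 (r = 0.80). Efemp1 ran with Gpm6a (r = 0.85), Igfbp6 (r = 0.84) and Rarres2 (r = 0.84). Fbln1 ran with Clec3b (r = 0.71), Dpt (r = 0.70), one of the adventitial fibroblast markers used here, and Ltbp4 (r = 0.67). Mfap4 had the weakest nearest neighbours of the 10 genes, Olfml3 (r = 0.69), Exoc3l4 (r = 0.66) and Slc27a3 (r = 0.64).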
